A study of Mus musculus with 3 samples.

Results

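The liver expressing the active YAP mutant YAP (1SA) was compared with the liver expressing wild-type YAP, YAP (WT). The comparison rests on 2 of the 3 arrays of the series, 1 array each, chosen by their titles, and on 13672 of the 20266 genes named on the array. Each array held labelled RNA from the liver of C57BL/6J mice carrying a human YAP cDNA, collected with the time label 2 days. Per the study's methods, male mice of 8 weeks received the cDNA as plasmid by hydrodynamic tail vein injection, in which a large volume is pushed quickly into the tail vein and carries DNA into the liver. The plasmid drives the cDNA from a mouse AFP enhancer and a minimal albumin promoter, so expression was directed to hepatocytes, and only a part of them takes up the DNA. The injection itself injures the liver, and both groups had it. No array of an uninjected liver was used here, so each difference is between 1 array with the mutant and 1 with the wild-type protein. Other differences between the livers on these arrays cannot be told apart from that of the protein. The third array, YAP (2SA), carries another active mutant and is given beside both as a further liver that was prepared in the same way. Neither the labels nor the methods state if RNA of 1 mouse or of pooled mice went onto an array, and the WT title is numbered 2.

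YAP is a transcriptional coactivator. Kinases of the Hippo pathway phosphorylate it on serines and keep it in the cytoplasm, and forms with serine replaced by alanine (SA) escape this control, enter the nucleus and act on genes through TEAD factors. In liver, active YAP is known for driving hepatocytes to divide and towards a bile duct or progenitor state. The comparison asked which genes differed between a liver with the active form and a liver with the regulated form. The labelled tissue was borne out by its markers. All 30 genes of a list of hepatocyte products and regulators were measured on both arrays, and Alb, serum albumin, had an intensity of 372102 in WT liver, 377413 in 1SA liver and 333769 in 2SA liver. The mouse Yap1 probe had an intensity of 4366 in WT liver, 3779 in 1SA liver and 4156 in 2SA liver. Since the cDNA was human, it gives no check of the labels.

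Values are deposited intensities, a linear brightness, of the brightest measured probe of a gene. Differences are on the log2 scale after each array was divided by its own 75th percentile, which was an intensity of 291 on WT and 276 on 1SA, so a difference of 1 is a 2-fold change. A value in brackets after a gene is this difference, 1SA minus WT. Of 55626 probes with a usable spot, 28032 were measured, that is, marked well above background, on both arrays. With 1 array a group there is no replicate check, no test was run and no p-value is given. Genes above or below a fold threshold are therefore called higher or lower on 1 array, not changed by the mutant. Repeated spots gave the error used here. For probes with repeated spots the SD of a difference was 0.27 in the dimmest of 4 equal groups of probes by signal, then 0.13, 0.09 and 0.07 in the brightest. This covers error between spots and leaves out the spread between animals. It also leaves out disagreement between probes. For the 2 brightest measured probes of a gene, the SD between their differences was 0.28. Both thresholds used below, 2-fold and 1.5-fold, lie beyond 2 such SDs in all 4 groups.

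Among the 28032 probes, 209 were at least 2-fold higher in 1SA (0.746%) and 273 at least 2-fold lower (0.974%). Among the 13672 genes, 101 were higher (0.739%) and 156 lower (1.14%). At 1.5-fold, 426 genes were higher (3.12%) and 644 lower (4.71%). These shares are the background against which the gene lists below are read. The median difference over all genes was -0.002. Dim probes gave the widest scatter, and 3.07% of the dimmest group passed 2-fold in either direction against 0.728% of the brightest. Above the median signal, 7 of the 12 highest genes were enzymes of sterol or fat synthesis, and 4 of the 12 lowest were fatty acid hydroxylases of the Cyp4a family.

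**Figure D1:**
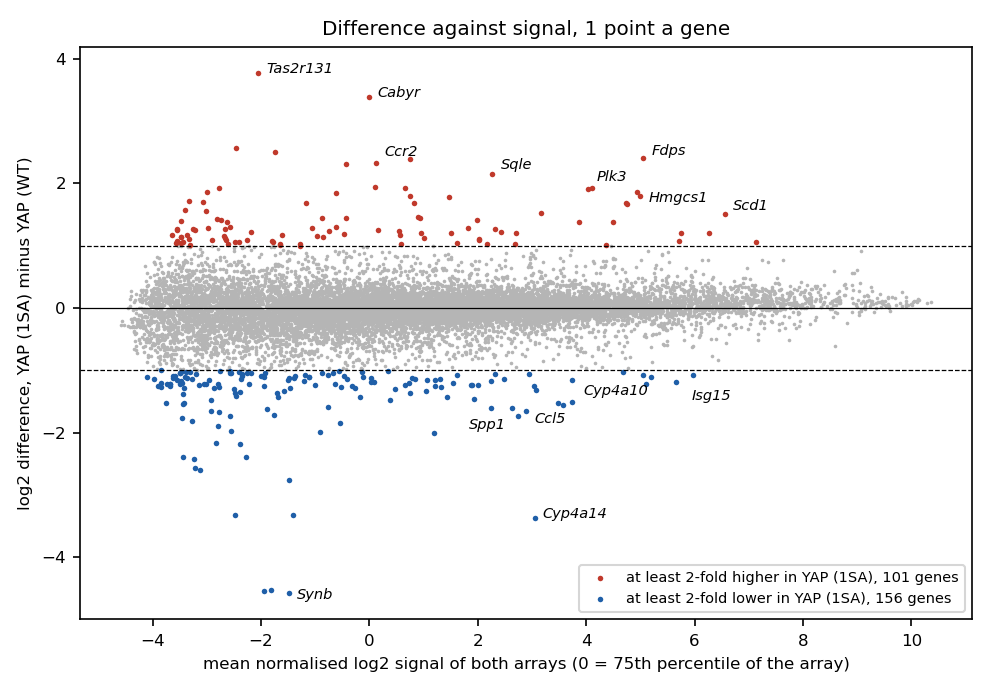
Log2 difference, YAP (1SA) minus YAP (WT), against the mean normalised log2 signal of both arrays, 1 point for each of the 13672 genes measured. Red points are the 101 genes at least 2-fold higher in 1SA, blue points the 156 at least 2-fold lower, and dashed lines mark 2-fold. The scatter narrows towards bright genes, where Fdps, Sqle, Hmgcs1 and Scd1 lie above it and Cyp4a14 lies below it.

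**Figure D2:**
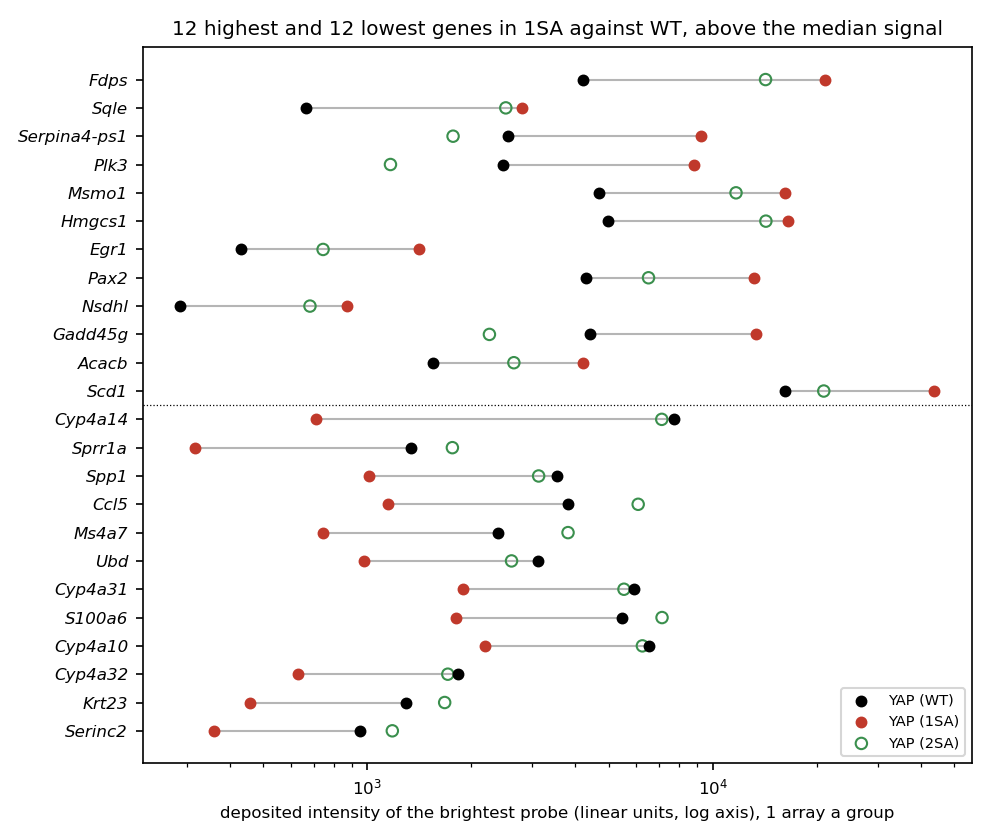
Deposited intensity on each array (log axis, 1 array a group) of 24 genes above the median signal, the 12 with the largest difference upwards in 1SA and the 12 downwards. Black points are WT, red points 1SA and open green circles 2SA. In the lower block the 1SA point lies to the left of both other arrays for all 12 genes.

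The clearest group was cholesterol synthesis. Cholesterol is made from acetyl-CoA through mevalonate, farnesyl diphosphate, squalene and lanosterol, and the transcription factor SREBP2 switches on nearly every enzyme of the route when sterols are low. Of 20 enzymes, all measured, 19 were higher in 1SA, 16 by at least 1.5-fold (80.0%, against 3.12% of all genes) and 8 by at least 2-fold (40.0%, against 0.739%). None was 1.5-fold lower. The median difference was 0.89 (1.85-fold), and in 2SA against WT the same 20 genes had a median of 0.59.

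The enzymes are given in the order of the route. Hmgcs1, which makes HMG-CoA, had an intensity of 4975 in WT liver, 16474 in 1SA liver and 14249 in 2SA liver, 3.49-fold higher in 1SA than in WT (1.804). Mvd, the last step from mevalonate to isoprenoid units, had an intensity of 158 in WT liver, 579 in 1SA liver and 495 in 2SA liver and was 3.86-fold higher (1.95). Fdps, which joins these units to farnesyl diphosphate, had an intensity of 4207 in WT liver, 21095 in 1SA liver and 14216 in 2SA liver. At 5.29-fold it was the largest difference upwards among genes above the median signal (2.403). Sqle, the oxidase that forms the epoxide of squalene and a second point of control, had an intensity of 664 in WT liver, 2801 in 1SA liver and 2516 in 2SA liver, or 4.45-fold (2.15).

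The later steps turn lanosterol into cholesterol. Cyp51, the demethylase of lanosterol, had an intensity of 99.7 in WT liver, 341 in 1SA liver and 237 in 2SA liver, 3.61-fold higher in 1SA. Msmo1, the methylsterol oxidase, had an intensity of 4686 in WT liver, 16151 in 1SA liver and 11676 in 2SA liver, 3.64-fold higher (1.86). Nsdhl, which acts just after it, had an intensity of 287 in WT liver, 875 in 1SA liver and 682 in 2SA liver. Its second probe differed by 1.79 where the brighter one differed by 1.68, so both probes were past 2-fold. Dhcr7, a late reductase, differed by 0.85. Acat2, an acetyl-CoA acetyltransferase at the entry, was the single member not higher (-0.04).

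The regulators of the route did not follow as a list. Of 16 measured genes of sterol uptake, export and SREBP control, 3 were at least 2-fold higher and the median was -0.06. Insig1, which holds SREBP in the endoplasmic reticulum and is itself switched on by it, had an intensity of 371 in WT liver, 816 in 1SA liver and 1049 in 2SA liver (1.21). Stard4, a carrier of cholesterol within cells, differed by 1.03. Srebf2, which encodes SREBP2, was lower (-0.88), with an intensity of 359.6 in WT liver, 185 in 1SA liver and 371 in 2SA liver.

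Promoter sequence is shown for this group because its members moved together. SREBP acts on promoters with the help of NF-Y, which binds the letters CCAAT. RefSeq promoters (GRCm38.p6, 250 bases before to 50 after the start of a gene) were at hand for 15 of the 20 enzymes. The letters CCAAT, on either strand, stood in 14 of these 15 (93.3%), against 41.1% of the promoters of all 27025 genes. The longer letters TCACNCCAC, the core of a sterol element, stood in 1 of 15, that of Hmgcs1, against 1.44% of all genes. A match describes letters only and shows no binding. The enzymes were listed for their known route, so these shares describe the list and not the differences on these arrays. The same holds for the promoter shares of the lists below. The 250 bases before the start of Mvd (chr8:122443423-122443672 on the minus strand) carry CCAAT once on each strand, and those of Hmgcs1 (chr13:119690101-119690350 on the plus strand) carry the sterol core once, apart from any CCAAT letters. Capitals mark the CCAAT letters or their reverse complement in Mvd, and the sterol core in Hmgcs1.
Mvd: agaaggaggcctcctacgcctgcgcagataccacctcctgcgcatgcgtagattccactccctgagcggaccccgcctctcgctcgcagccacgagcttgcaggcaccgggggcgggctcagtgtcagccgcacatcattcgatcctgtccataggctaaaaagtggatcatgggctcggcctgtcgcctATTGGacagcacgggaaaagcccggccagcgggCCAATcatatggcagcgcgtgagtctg
Hmgcs1: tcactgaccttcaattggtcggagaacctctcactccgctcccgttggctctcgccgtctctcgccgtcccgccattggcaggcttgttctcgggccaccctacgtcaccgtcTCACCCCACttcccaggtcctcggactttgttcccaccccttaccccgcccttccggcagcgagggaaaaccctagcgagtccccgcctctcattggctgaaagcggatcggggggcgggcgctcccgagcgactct

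Fatty acid and triglyceride synthesis showed the same direction with smaller differences. Fatty acids are built from acetyl-CoA by the carboxylases and fatty acid synthase, then lengthened, desaturated and stored as triglyceride. Of 22 measured genes, 19 were higher in 1SA, 10 by at least 1.5-fold (45.5%) and 5 by at least 2-fold (22.7%). The median was 0.52, and 0.16 in 2SA against WT. Scd1, the desaturase that makes oleate, was among the brightest probes and had an intensity of 16136 in WT liver, 43789 in 1SA liver and 20958 in 2SA liver, 2.86-fold higher (1.52). Scd genes are close in sequence, and cross-hybridisation between them was not tested.

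Acetyl-CoA supply and carboxylation came next. Acss2, which makes acetyl-CoA from acetate, had an intensity of 4054 in WT liver, 10017 in 1SA liver and 6279 in 2SA liver (1.38), and its second probe differed by 1.33. Acacb, the carboxylase whose product holds back the entry of fatty acids into mitochondria, had an intensity of 1548 in WT liver, 4206 in 1SA liver and 2655 in 2SA liver (1.52), and its second probe differed by 1.72. For both genes the 2SA array lay between WT and 1SA. Fasn, fatty acid synthase, had an intensity of 121 in WT liver, 283 in 1SA liver and 250.03 in 2SA liver (1.300), and Thrsp, a lipogenic regulator raised by feeding and thyroid hormone, had an intensity of 14668 in WT liver, 32216 in 1SA liver and 27511 in 2SA liver (1.21). The transcription factors that drive the route were near 0, with -0.01 for Srebf1 and 0.05 for Mlxipl. So were the last enzymes of triglyceride synthesis, with 0.19 for Dgat1 and 0.15 for Dgat2.

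Targets of PPAR alpha went the other way. This nuclear receptor senses fatty acids during fasting and switches on their transport, oxidation and omega-hydroxylation. Of 23 measured targets, 21 were lower in 1SA, 10 by at least 1.5-fold (43.5%, against 4.71% of all genes) and 6 by at least 2-fold (26.1%, against 1.14%). The median was -0.43, and -0.23 in 2SA against WT. The fatty acid hydroxylase Cyp4a14 had an intensity of 7734 in WT liver, 709 in 1SA liver and 7117 in 2SA liver, 10.3-fold lower in 1SA (-3.37). It was the largest difference downwards among genes above the median signal, and only the 1SA array stood apart.

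Other hydroxylases of the Cyp4a family followed with smaller sizes. Cyp4a10 had an intensity of 6543 in WT liver, 2192 in 1SA liver and 6255 in 2SA liver (-1.501), with -1.51 and -0.52 for its 2 other probes. Cyp4a31 had an intensity of 5904 in WT liver, 1896 in 1SA liver and 5531 in 2SA liver (-1.56) and Cyp4a32, which was not in the list, 1834 in WT, 629.7 in 1SA and 1709.7 in 2SA (-1.47). These 3 genes are near-identical copies, so their probes may read the same transcripts, and the 2 other probes of Cyp4a31 disagreed, with -1.29 and -0.03. Cyp4a12a and Cyp4a12b, the male-type hydroxylases of the family, were higher in 1SA, by 0.52 and 0.54.

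Among the other targets, Acot3, a peroxisomal thioesterase, had an intensity of 308 in WT liver, 73.3 in 1SA liver and 253 in 2SA liver (-1.99). Vnn1, the pantetheinase, had an intensity of 1033 in WT liver, 413 in 1SA liver and 1561 in 2SA liver (-1.25). Cidec, a lipid droplet protein, had an intensity of 634 in WT liver, 216 in 1SA liver and 249 in 2SA liver (-1.48). For Cidec the 2SA array was as low as 1SA, so here WT stood apart from both mutants. The secreted lipase inhibitor Angptl4 had a difference of -0.86, against 0.78 for the 2SA array. Enzymes of mitochondrial oxidation differed less, with -0.43 for Cpt1a, -0.38 for Acadl and -0.205 for Acadm. Genes of gluconeogenesis and fasting had a median of -0.02 over 18 members, 1 of them 1.5-fold higher and none 1.5-fold lower.

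**Figure D3:**
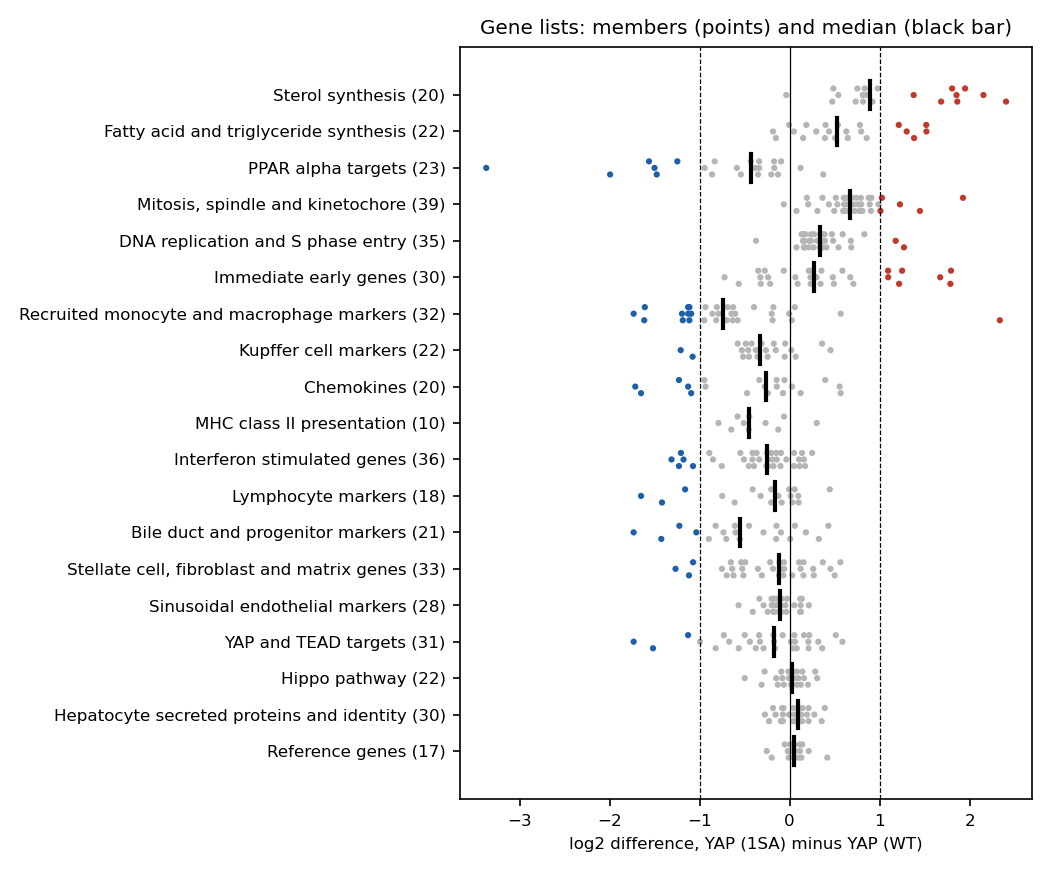
Log2 difference, YAP (1SA) minus YAP (WT), of each measured member (points) of 19 gene lists, with the number measured in brackets and the median as a black bar. Red and blue points are members at least 2-fold higher or lower, and dashed lines mark 2-fold. The lists of sterol synthesis and mitosis lie to the right of 0 with 1 exception each, and most macrophage markers lie to the left.

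Cell division genes formed a wide shift, larger for mitosis than for DNA replication. Nearly all of them were higher in 1SA by modest amounts. Of 39 measured genes of mitosis, spindle and kinetochore, 38 were higher, 29 by at least 1.5-fold (74.4%) and 5 by at least 2-fold. The median was 0.67, and 0.84 in 2SA against WT. Of 35 measured genes of DNA replication and entry into S phase, 34 were higher, 6 by at least 1.5-fold (17.1%) and 2 by at least 2-fold, with a median of 0.34 (0.61 in 2SA).

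In mitosis, Mki67, the proliferation marker Ki-67, had an intensity of 624 in WT liver, 1026 in 1SA liver and 1034 in 2SA liver (0.795). Cdk1, the kinase that drives entry into mitosis, had an intensity of 158 in WT liver, 277 in 1SA liver and 360.0 in 2SA liver (0.89), and its partner Ccnb1 261 in WT, 394 in 1SA and 395 in 2SA (0.67). Pbk, a mitotic kinase, had an intensity of 96.3 in WT liver, 249 in 1SA liver and 326 in 2SA liver (1.45). Both mutants lay above WT on all 4 genes. The 2-fold members were Bora, an activator of Aurora A and Plk1 (1.92), Pbk, the kinetochore protein Nuf2 (1.22), the checkpoint kinase Bub1 (1.02) and the spindle motor Kif11 (1.01). Kif11 was dim, with an intensity of 20.6 in WT liver, 39.4 in 1SA liver and 50.2 in 2SA liver. So was Bora, with 21.9 in WT, 78.8 in 1SA and 55.1 in 2SA. Bub1, with 33.2 in WT, 64.1 in 1SA and 67.1 in 2SA, was dim too. Nuf2 had 42.1 in WT, 93.3 in 1SA and 107 in 2SA. Spc25, a kinetochore protein, was the single member not higher (-0.07).

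In S phase, Rrm2, the regulated subunit of ribonucleotide reductase, had an intensity of 932 in WT liver, 2129.7 in 1SA liver and 2997 in 2SA liver (1.27). Cdc6, which licenses origins of replication, had an intensity of 18.8 in WT liver, 40.3 in 1SA liver and 52.1 in 2SA liver (1.18). The helicase subunits Mcm2 to Mcm7 differed by 0.24 for Mcm3 at the low end and 0.68 for Mcm5 at the high end, and Pcna, the sliding clamp, by 0.33. Ccne1, cyclin E1, differed by 0.83. Ccnd1, cyclin D1, which links growth signals to the cycle, was the single member lower, with an intensity of 1778 in WT liver, 1301 in 1SA liver and 2502 in 2SA liver (-0.37). Ect2, an exchange factor needed for cytokinesis, was also higher (0.98).

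The inhibitors of the cycle did not move with it. Of 23 measured inhibitors and p53 targets, 1 was 2-fold higher and 1 was 2-fold lower, with a median of -0.04. Cdkn1a, the inhibitor p21, read from 10 spots, had an intensity of 463 in WT liver, 194 in 1SA liver and 726 in 2SA liver, 2.26-fold lower in 1SA (-1.18). Plk3, a stress-responsive Polo kinase, had an intensity of 2469.7 in WT liver, 8809 in 1SA liver and 1166 in 2SA liver, 3.76-fold higher in 1SA (1.91) while 2SA was below WT (-1.22).

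Promoters are shown for 1 list because the cell cycle is timed through them. Mitotic genes are known for the CHR element, core letters TTTGAA, and S phase genes for E2F sites, core letters TTTNGCGC. The CHR letters stood in 20 of 33 mitotic promoters at hand (60.6%), against 20.2% of all genes. The E2F letters stood in 11 of 28 S phase promoters (39.3%), against 1.57%. The 20 mitotic genes with TTTGAA had a median of 0.61 and the 13 without it a median of 0.65. For the E2F letters the medians were 0.36 with and 0.33 without. The 250 bases before the start of Kif11 (chr19:37376132-37376381 on the plus strand) carry the CHR letters once as their reverse complement, in capitals.
Kif11: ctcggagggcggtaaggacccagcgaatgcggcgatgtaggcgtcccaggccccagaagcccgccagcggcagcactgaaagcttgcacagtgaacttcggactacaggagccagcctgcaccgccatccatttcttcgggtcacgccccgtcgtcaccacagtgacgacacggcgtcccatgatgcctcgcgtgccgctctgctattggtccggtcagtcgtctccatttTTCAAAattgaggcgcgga

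Immediate early genes, which cells switch on within minutes of a growth signal or a stress, were split. Of 30 measured, 7 were at least 2-fold higher (23.3%) and none 2-fold lower, while 9 were below WT, 1 of them by 1.5-fold. The median was 0.27, and 0.34 in 2SA against WT. Egr1, the zinc finger factor, had an intensity of 431 in WT liver, 1408 in 1SA liver and 744 in 2SA liver, 3.45-fold higher (1.79). Nr4a1, an orphan nuclear receptor, had an intensity of 261 in WT liver, 858 in 1SA liver and 619 in 2SA liver (1.79), and Myc 209.6 in WT, 472 in 1SA and 305 in 2SA (1.25). On these 3 genes the 2SA array lay between WT and 1SA.

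Gadd45g, a growth arrest and damage gene, had an intensity of 4407 in WT liver, 13314 in 1SA liver and 2256 in 2SA liver. It was 3.19-fold higher in 1SA (1.67) and lower than WT in 2SA (-1.102). Its relative Gadd45b went the other way, with an intensity of 220.2 in WT liver, 141 in 1SA liver and 715 in 2SA liver (-0.57 and 1.56). Csrnp1 (1.22) and the phosphatases Dusp1 (1.09) and Dusp4 (1.09) were the other 2-fold members. The AP-1 subunits stayed closer to WT, with 0.299 for Fos, 0.23 for Jun and -0.28 for Fosb. Socs3, the brake on cytokine signalling that IL-6 induces, had an intensity of 805 in WT liver, 1644 in 1SA liver and 709.6 in 2SA liver (1.11), and the list of 30 acute phase genes held no other 1.5-fold member and had a median of 0.19.

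Macrophage genes were lower in 1SA. Recruited monocytes and macrophages enter an injured liver and carry markers that differ from those of Kupffer cells, the resident macrophages that engulf dying hepatocytes. Of 32 measured markers of recruited monocytes and macrophages, 28 were below WT, 22 by at least 1.5-fold (68.8%) and 10 by at least 2-fold (31.3%). The median was -0.74, against 0.23 in 2SA. The summed signal of the list in 1SA was 65.0% of that in WT, and in 2SA it was 119%. In a bulk sample, fewer cells of a type and less RNA per cell cannot be told apart. Of the 38 genes listed, 35 had a usable probe, and Cd68, Clec4e and Tnf were among those not measured on both arrays.

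Ms4a7, a membrane protein of macrophages, had an intensity of 2395 in WT liver, 744 in 1SA liver and 3810.2 in 2SA liver, 3.05-fold lower in 1SA (-1.61). Spp1, osteopontin, which bile duct cells also make, had an intensity of 3536 in WT liver, 1009 in 1SA liver and 3132 in 2SA liver (-1.73). Lgals3, galectin 3, had an intensity of 15628 in WT liver, 6850.3 in 1SA liver and 19591 in 2SA liver (-1.11). Gpnmb (-1.196), Itgax (-1.19), Clec4d (-1.61), Chil3 (-1.13), Mmp12 (-1.11) and the chemokines Ccl3 and Ccl4 were the others past 2-fold. Only the 1SA array stood apart on Ms4a7, Spp1 and Lgals3.

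Ccr2, the chemokine receptor that brings monocytes out of the bone marrow, went against its list. It had an intensity of 141 in WT liver, 674 in 1SA liver and 279 in 2SA liver, 5.04-fold higher in 1SA (2.33). It was read from 1 spot in row 369, in the region of the array with most outlying probes described below. Cx3cr1, the receptor of patrolling monocytes, differed by -0.58 and Itgam by -0.19.

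Kupffer cell markers differed less. Of 22 measured, 18 were below WT and 2 were at least 2-fold lower (9.09%), with a median of -0.33, and -0.19 in 2SA. The summed signal was 78.4% of that in WT. Marco, a scavenger receptor, had an intensity of 15275 in WT liver, 6259 in 1SA liver and 5571 in 2SA liver (-1.21), low in both mutants. Spic, the factor of iron-recycling macrophages, had an intensity of 1295 in WT liver, 582 in 1SA liver and 1316 in 2SA liver (-1.08). The C1q subunits differed by -0.58 for C1qc, -0.53 for C1qb and -0.52 for C1qa. Clec4f, the lectin particular to Kupffer cells, was higher, with an intensity of 3170.2 in WT liver, 4117 in 1SA liver and 1178 in 2SA liver (0.45), and Vsig4 differed by 0.07. On Clec4f the 2SA array was the one that stood apart.

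Genes of antigen presentation and chemokines were mostly below WT too. Of 10 measured genes of MHC class II presentation, 9 were below WT with a median of -0.45, and none was 2-fold lower. Cd74, the invariant chain, had an intensity of 2708 in WT liver, 1804 in 1SA liver and 2600.5 in 2SA liver (-0.51). Of 20 measured chemokines, 5 were at least 2-fold lower (25.0%) and none 1.5-fold higher, with a median of -0.26. Ccl5, which attracts T cells and monocytes, had an intensity of 3806 in WT liver, 1149 in 1SA liver and 6082 in 2SA liver, 3.14-fold lower (-1.65). Ccl8 (-1.71), Ccl7 (-1.23), Ccl3 (-1.13) and Ccl4 (-1.09) were the others, all ligands of receptors on monocytes and T cells. The monocyte attractant Ccl2 had an intensity of 732 in WT liver, 359.8 in 1SA liver and 1781 in 2SA liver (-0.95), and in 2SA it was above WT (1.15).

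Of the lymphocyte markers, effector genes were the lowest. Of 18 measured, 3 were at least 2-fold lower and the median was -0.16. Besides Ccl5 these were the granzymes of killer cells, Gzma with an intensity of 908 in WT liver, 385 in 1SA liver and 1497 in 2SA liver (-1.16) and Gzmb with an intensity of 86.5 in WT liver, 30.7 in 1SA liver and 151 in 2SA liver (-1.42). T and B cell receptors lay near 0, with 0.099 for Cd3e, 0.01 for Cd3d and 0.06 for Cd79b. Neutrophil markers were measured for 8 of 17 genes, none of which passed 1.5-fold, with a median of 0.14. Of 28 measured endothelial markers of the sinusoids, none passed 1.5-fold, and the median was -0.11.

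Interferon stimulated genes were lower in 1SA in part. These genes respond to interferon through STAT and IRF factors and carry an antiviral programme. Of 36 measured, 28 were below WT, 8 by at least 1.5-fold (22.2%) and 5 by at least 2-fold (13.9%), with a median of -0.25, against 0.12 in 2SA. Isg15, a ubiquitin-like modifier, had an intensity of 22008 in WT liver, 9218 in 1SA liver and 37547 in 2SA liver, 2.26-fold lower (-1.18), and its second probe differed by -1.13. Oas1a, a sensor of double-stranded RNA, had an intensity of 14036 in WT liver, 6323 in 1SA liver and 15358 in 2SA liver (-1.07), and its second probe differed by -1.096. Oasl2 (-1.31), Ifi44 (-1.23) and Gbp2 (-1.21) were the others. Other classical members did not follow, with 0.16 for Usp18, 0.104 for Ifit1 and 0.05 for Irf9.

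The promoters of this list are shown for the same reason as those above. The core of the interferon element, TTTC followed after 2 free bases by TTTC, stood on either strand in 19 of 29 promoters at hand (65.5%), against 3.99% of all genes. The 19 genes with the letters had a median difference of -0.25 and the 10 without them -0.31. The 250 bases before the start of Gbp2 (chr3:142620413-142620662 on the plus strand) carry the letters once, in capitals.
Gbp2: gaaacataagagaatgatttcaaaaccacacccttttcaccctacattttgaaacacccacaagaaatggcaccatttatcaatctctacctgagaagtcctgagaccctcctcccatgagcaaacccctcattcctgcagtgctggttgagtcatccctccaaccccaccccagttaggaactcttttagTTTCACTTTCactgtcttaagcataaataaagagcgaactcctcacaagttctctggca

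Bile duct and progenitor markers were lower in 1SA. Of 21 measured, 16 were below WT, 10 by at least 1.5-fold (47.6%) and 4 by at least 2-fold (19.05%), with a median of -0.56, and 0.03 in 2SA. Krt23, a stress keratin, had an intensity of 1292 in WT liver, 456 in 1SA liver and 1674 in 2SA liver, 2.69-fold lower (-1.43). Prom1, the progenitor marker CD133, had an intensity of 285 in WT liver, 115 in 1SA liver and 219.7 in 2SA liver (-1.22), but its dimmer probe differed by 0.10. The duct keratins Krt19 and Krt7 had 134 in WT, 71.9 in 1SA and 139.6 in 2SA (-0.82) and 30.7 in WT, 17.5 in 1SA and 35.7 in 2SA (-0.73). Sox9, which marks duct and progenitor cells, differed by -0.29. The median was -0.17 with the normexp background correction, an estimate of background from the raw signals with an offset of 50 added. Sprr1a, a stress-induced epithelial gene outside the list, had an intensity of 1337 in WT liver, 316 in 1SA liver and 1763 in 2SA liver (-2.005), and S100a6, a calcium-binding protein of duct and stromal cells, had an intensity of 5458 in WT liver, 1806 in 1SA liver and 7131 in 2SA liver (-1.52). Spp1 belongs to the lists of macrophages, bile duct and YAP targets alike. The markers of recruited macrophages, at 65.0% of their summed WT signal, were lower beside these lists, and their part in the results on chemokines, interferon, bile duct and stroma was not tested.

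Stroma showed differences in contractile and matrix genes. Of 33 measured genes of stellate cells, fibroblasts and matrix, 8 were at least 1.5-fold lower (24.2%) and 3 at least 2-fold lower, and none was 1.5-fold higher, with a median of -0.12. Acta2, smooth muscle actin, which marks activated stellate cells, had an intensity of 1121 in WT liver, 442 in 1SA liver and 865 in 2SA liver (-1.27). Mgp (-1.12) and Timp1 (-1.07) were the others. Markers of quiescent stellate cells were not lower, with 0.26 for Lrat and 0.45 for Hand2. Among 19 measured regulators and markers of epithelial-mesenchymal transition, Snai2 passed 2-fold (-1.004), with an intensity of 523 in WT liver, 247 in 1SA liver and 609 in 2SA liver, and the median was -0.24.

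Targets of YAP and TEAD were not higher as a group in 1SA than in WT. Of 31 measured, none was 2-fold higher, 1 was 1.5-fold higher (3.23%, close to the 3.12% of all genes), 7 were 1.5-fold lower (22.6%) and 3 were 2-fold lower. The median was -0.17 (0.14 in 2SA), and over members above the median signal it turned to 0.07. The matricellular proteins Ccn1 and Ccn2, the best known targets, parted. Ccn1 had an intensity of 356 in WT liver, 507 in 1SA liver and 1453 in 2SA liver (0.59) and Ccn2 633 in WT, 441 in 1SA and 3092 in 2SA (-0.44). The paper's real-time PCR found Ccn2, there called ctgf, raised by each active mutant and not by wild-type YAP, at times that included that of these arrays. Here Ccn2 was higher than WT in 2SA (2.15) but not in 1SA. The cause of this contrast was not tested, nor was the activity of YAP in the 1SA liver. Ankrd1, another of the listed targets, had an intensity of 36.5 in WT liver, 12.1 in 1SA liver and 39.7 in 2SA liver (-1.52). Thbs1 had 41.5 in WT, 18.02 in 1SA and 47.9 in 2SA (-1.13), and both were among the dimmer genes. The feedback targets Amotl2 and Lats2 differed by 0.16 and 0.04. In 2SA, Amotl2 differed from WT by 1.13 and Ccn1 by 1.89. The 22 measured genes of the Hippo pathway lay between -0.50 and 0.31, with a median of 0.03.

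The letters GGAATG, the core of a TEAD site, stood in 9 of 20 promoters of these targets at hand (45.0%), against 16.6% of all genes. The 9 genes with the letters had a median of -0.17 and the 11 without them -0.16. TEAD also acts from distant enhancers, which this window does not hold. The 250 bases before the start of Ankrd1 (chr19:36119845-36120094 on the minus strand) carry the letters 2 times, in capitals.
Ankrd1: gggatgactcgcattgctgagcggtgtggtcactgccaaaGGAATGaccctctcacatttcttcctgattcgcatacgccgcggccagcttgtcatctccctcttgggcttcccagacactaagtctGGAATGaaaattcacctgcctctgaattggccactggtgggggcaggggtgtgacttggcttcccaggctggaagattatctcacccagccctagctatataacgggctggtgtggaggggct

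Hepatocyte identity was close to WT. The 30 hepatocyte genes lay between -0.27 and 0.39 with a median of 0.09, and none passed 1.5-fold. The 20 periportal genes had a median of 0.07 and none passed 1.5-fold. Of 19 pericentral genes, 5 were 1.5-fold higher (26.3%) and 1 was 1.5-fold lower, with a median of 0.22. Lgr5, a Wnt target of hepatocytes around the central vein, had an intensity of 99.0 in WT liver, 209.7 in 1SA liver and 71.9 in 2SA liver (1.16), and Cyp1a2 4414 in WT, 7087 in 1SA and 4418 in 2SA (0.76). Axin2, another Wnt target, differed by 0.48, and Glul, glutamine synthetase, by 0.45. In 2SA the pericentral list had a median of -0.34.

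Among 30 measured cytochrome P450 genes, 1 was 2-fold higher and 2 were 2-fold lower, Cyp2c55 and Cyp2b9 (-1.098). Cyp7b1, a hydroxylase of oxysterols in the acidic route of bile acid synthesis, had an intensity of 10299 in WT liver, 22389.5 in 1SA liver and 12608 in 2SA liver (1.197). Cyp2b10, Cyp2c55 and Cyp3a11, which respond to the receptors CAR and PXR, were picked after their values were seen. Cyp2b10 had an intensity of 7897 in WT liver, 3881 in 1SA liver and 5315 in 2SA liver (-0.95), and Cyp2c55 1775 in WT, 718 in 1SA and 1089 in 2SA (-1.23), and Cyp3a11 differed by -0.600. On these 3 genes 1SA was the lowest array and 2SA lay between. Cyp7a1, the rate-limiting enzyme of bile acid synthesis, had a difference of -0.21, against -1.82 for the 2SA array. Of 19 measured genes under growth hormone or sex control, 15 were above WT, among them Slco1a1 with an intensity of 919 in WT liver, 1781 in 1SA liver and 1528 in 2SA liver (1.03) and Mup21 with an intensity of 28068 in WT liver, 55619 in 1SA liver and 44578 in 2SA liver (1.06). The Mup genes are close copies, and Mup20 and Mup3 differed by 0.12 and 0.21.

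Blood cell genes were higher in 1SA. Of 19 measured genes of the red cell lineage, 16 were above WT, and 4 of the 5 past 1.5-fold were globins. Hba-a1 had an intensity of 9684 in WT liver, 17159.9 in 1SA liver and 14516 in 2SA liver (0.902) and Hbb-bt 4239 in WT, 8116 in 1SA and 6719 in 2SA (1.01). The summed signal of the list was 134% of that in WT, and the part of residual blood in other results was not tested. Precursor genes such as Klf1 (-0.11) and Tfrc (0.26) differed less. Lists of chaperones, NRF2 targets, glucocorticoid response, core clock, complement and coagulation, and reference genes had medians between -0.03 and 0.19 with at most 1 member past 2-fold each. The 23 acinar genes of the pancreas, a check of dissection, had 7 members measured, and these had a median of 0.11. A list of skeletal muscle, adipose and gut markers had 11 members measured, with a median of -0.40. Of these, 4 were at least 1.5-fold lower (36.4%, against 4.71% of all genes). At 2-fold, Lgals4 was lower (-1.23) and Tff3 higher (1.13). The part of other tissue in these differences was not tested.

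Further genes stood out that no list held. Serpina4-ps1, a serpin pseudogene transcribed in liver, had an intensity of 2554 in WT liver, 9231 in 1SA liver and 1770.5 in 2SA liver (1.93). Pax2, a developmental factor of the kidney, had an intensity of 4308 in WT liver, 13202 in 1SA liver and 6516 in 2SA liver (1.69). Apc2, a relative of the Wnt regulator APC, had an intensity of 215 in WT liver, 1064 in 1SA liver and 262 in 2SA liver (2.39). Dio1, the deiodinase that activates thyroid hormone, had 3 probes, which differed by 1.198, 1.17 and 1.102. Cabyr, a calcium-binding protein known from sperm, had an intensity of 89.3 in WT liver, 886 in 1SA liver and 208 in 2SA liver, 10.5-fold higher (3.39), and its second probe differed by 3.22. Sftpd, a collectin of lung surfactant, had an intensity of 781 in WT liver, 287 in 1SA liver and 3735 in 2SA liver, lower in 1SA (-1.37) and higher in 2SA (2.12), with a second probe at -1.21. Ubd, a ubiquitin-like protein raised by interferon gamma and TNF, had an intensity of 3127 in WT liver, 976 in 1SA liver and 2615 in 2SA liver (-1.603).

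Different probes of a gene gave a check within the arrays. Of 3361 genes with several measured probes, 8 had all probes at least 2-fold higher, namely Cabyr, Nsdhl, Acacb, Xlr3b, Acss2, Ikzf4, Dio1 and Meig1, and 12 had all probes at least 2-fold lower, among them Sema5b, Cidec, S100g, Serinc2, Sftpd, Isg15, Lgals4 and Oas1a. Where the brightest probe was at least 2-fold higher, the next probe was 2-fold higher too in 8 of 14 genes and had the same sign in 14. Where the brightest probe was at least 2-fold lower, the numbers were 13 and 18 of 25. Above the median signal the agreement downwards was 6 of 7, and at or below it 7 of 18. Nup188 disagreed most among genes whose brightest probe passed 2-fold. Its brighter probe differed by -2.76 and the dimmer one by 0.42. For Fgd3, an exchange factor for CDC42, the brighter probe differed by -1.05 and the other by 0.08.

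**Figure D4:**
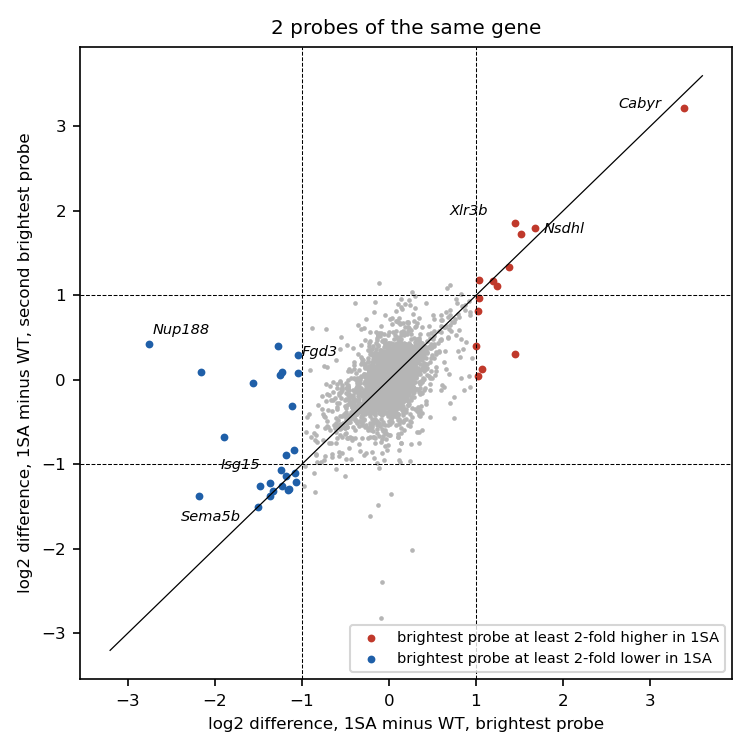
Log2 difference, YAP (1SA) minus YAP (WT), of the second brightest probe against that of the brightest probe, for 3361 genes with several measured probes. Red and blue points have a brightest probe at least 2-fold higher or lower, dashed lines mark 2-fold and the solid line marks equal values. Higher genes such as Cabyr and Nsdhl lie near the line, and several lower genes such as Nup188 lie far above it.

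The most extreme differences over all genes were of another kind. Tas2r131, a bitter taste receptor, had an intensity of 19.1 in WT liver, 247 in 1SA liver and 26.5 in 2SA liver (3.77). Synb, syncytin B, had an intensity of 508 in WT liver, 20.2 in 1SA liver and 11.45 in 2SA liver (-4.57). Eid2 (-4.53), Ly6h (-4.52), Grhl1 (-3.32), Asrgl1 (-3.31) and Chat (-2.42) were further genes on which 1SA and 2SA both lay far below WT, so the WT array stood apart. Such probes had 1 spot an array, and 12 of the 20 most extreme genes lay in rows 289 to 384 of the 384 rows.

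Position on the array was therefore counted. Among 27725 measured probes with 1 spot, 53 differed by at least 4-fold, and 31 of these lay in rows 289 to 384. At 2-fold the share was 2.49% in these rows against 1.71%, 1.199% and 1.49% in the 3 other blocks of 96 rows. The excess was larger among probes at or below the median signal, with 3.69% against 2.28%, 1.79% and 2.33%. Above the median signal the shares were 1.28% in these rows and 1.14%, 0.584% and 0.675% in the others. Sqle, Msmo1 and Hmgcs1 were read from these rows too, whereas Fdps, Mvd, Cyp51, Nsdhl, Scd1, Cyp4a14, Ccl5 and Isg15 were not. Other named genes read from these rows included Rrm2, Bora, Fasn, Acacb, Cyp4a31, Cyp4a32, Spic, Ifi44, Oas1a, Snai2 and Ccn2. Lgr5, Cyp2c55, Mup21, Hbb-bt, Serpina4-ps1 and Cabyr were read from there as well. Without these rows 129 probes were higher and 181 lower, and the median of sterol synthesis was 0.84.

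**Figure D5:**
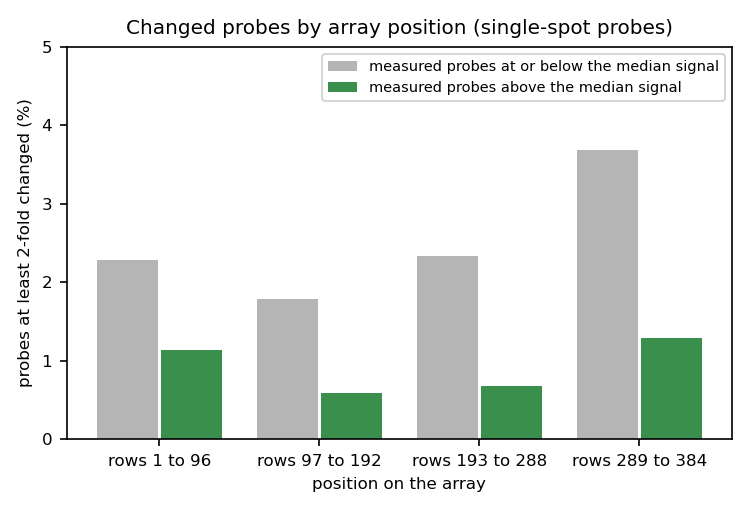
Share of measured single-spot probes at least 2-fold higher or lower in YAP (1SA) than in YAP (WT), in 4 blocks of 96 array rows. Grey bars are probes at or below the median signal and green bars probes above it. The share is highest in rows 289 to 384 for both, at 3.69% and 1.28%.

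Probes measured on 1 array only gave bounds. On 1SA alone 1662 probes were well above background, of which 181 were at least 2-fold higher by their bound, and on WT alone 925, of which 348 were at least 2-fold lower. For a bound, the dim value or, if higher, the lowest measured signal of that array was the divisor. Vwa3a had an intensity of 3.34 on WT and 209 on 1SA, at least 17.6-fold higher. Camk4, a calcium-dependent kinase of neurons and T cells, had 3.200 on WT and 139 on 1SA, at least 11.7-fold higher. Kcnab3, a potassium channel subunit, had 545 on WT and 8.96 on 1SA, at least 50.4-fold lower in 1SA. Pou3f2, a neural factor, had 157 on WT and 6.74 on 1SA, at least 14.5-fold lower. The bounds past 2-fold lay in rows 289 to 384 for 98 of the 181 and 167 of the 348 probes.

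Control RNAs are added to each labelling reaction. Of 10 spiked probes with 35 spots each, 7 were measured, over intensities from 45.6 to 55670 on WT. After scaling they were higher on 1SA by 0.27 to 0.38. On the same scale the median over all liver genes was -0.002, so as a whole they lay lower against the spikes on 1SA. What this shift reflects was not tested.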

How the data were processed

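Liver RNA of 3 samples was labelled with Cy3 and hybridised to 1-colour Agilent mouse expression arrays on 1 slide, so a slide effect could not be fitted. Per the file headers, the authors' scanner software was Feature Extraction 10.10.1.1, and the deposited intensity is its processed signal, already background-corrected. The deposited value table holds the same intensity times 1 constant for each array. Scanner files were the source here. Control spots and outlier spots were left out, spots of a probe were averaged, intensities were divided by the 75th percentile of each array, and log2 values were subtracted. Probes had to be well above background on both arrays, and the brightest probe stood for a gene. Names came from RefSeq accessions (GRCm38.p6), and 26732 probes matched 20266 symbols. Groups came from the titles. The number of arrays, 1 a group, limits the precision, and no test was run. Named genes were the 10 largest differences each way, the 12 largest each way above the median signal, the members of each list past 2-fold (up to 6) or else its 3 largest, genes with all probes past 2-fold, and 6 genes the study turned on. Other list members given for their role were chosen after their values were seen. Some members of the lists enter the counts and medians but are not reported here by name. The members and the gene lists were chosen with earlier results of these data known. Other settings tried were quantile normalisation, scaling to the array median, normexp (limma 3.58.1, R 4.3.3), the value table, no filter on dim probes, probes above the median signal, the mean of probes, kept outlier spots and a 3-fold threshold. Leaving out rows 289 to 384 was added after seeing the data. Normexp ran on median spot and background signals, and an offset of 50 was added to each signal. Such an offset makes the differences of dim probes smaller. The median intensity of the dimmest group on WT was 30.7. The steps were tested on simulated data and run with Python 3.11.15, pandas 2.3.3 and numpy 2.4.6.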

Additional observations from a re-analysis of the deposited data

Results flagged for a closer look

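For 5 genes named in the report the 2 mutants lay at least 2-fold from WT in opposite directions. Both differences share the WT array, and the difference between them was not tested. The 1SA difference was 1.91 for Plk3, against -1.22 for 2SA. For Gadd45g the values were 1.67 and -1.102, for Ccl7 -1.23 and 1.27, for Chil3 -1.13 and 1.24, and for Sftpd -1.37 and 2.12.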

How the results depend on the processing

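No paired analysis was possible because the groups have 1 array apiece, all numbered 1. Quantile normalisation, the array median, the value table and kept outlier spots left all 42 list medians within their margin. With normexp, 83 probes were at least 2-fold higher and 66 lower, so the share of higher probes went from 43.4% to 55.7%, and the medians were 0.52 for mitosis, -0.64 for recruited macrophages and -0.17 for bile duct markers. Without the filter on dim probes, 2034 were higher and 2546 lower, the median of all moved by -0.13, and PPAR alpha targets had -0.54 and bile duct markers -0.42. Above the median signal, 68 were higher and 62 lower, with -0.45 for bile duct markers and 0.54 for immediate early genes. At 3-fold, 54 were higher and 60 lower. Without rows 289 to 384, 129 were higher and 181 lower, recruited macrophage markers had -0.87, and Nup188 (0.41) and Fgd3 (0.068) turned sign, since another probe then stood for the gene. Normexp, with its offset of 50, moved 80 of 156 named genes beyond their spot error. The part of the offset in the normexp results was not tested. The median of bile duct markers lay between -0.61 and -0.17 over all settings, and 1 array a group limits every value.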
